A study of Mus musculus with 79 samples.

Results

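Genes of MHC class II antigen presentation were followed through nerve repair in mice in 10 members, which are H2-Aa, H2-Ab1, H2-Eb1, Cd74, H2-DMa, H2-DMb1, H2-Oa, Ciita, Cd80 and Cd86. The members were picked out by symbol, with no threshold on their values, and all 10 were found among the 23361 genes of the count tables. RNA had been sequenced from macrophages (MAC) and Schwann cells (SC) sorted out of the regenerative bridge at 5 and 14 days after repair, and from the distal tibial stump (DS) at 5 days. The 79 libraries came from 32 S100β-eGFP mice of both sexes, and no bridges were pooled. In the delayed group the tibial branch was cut and left for 8 weeks before the freshly cut common peroneal nerve was cross-sutured to it inside a silicone conduit. In the immediate group the cross-suture was made at once, and in these mice the sciatic nerve had only been exposed through an incision 8 weeks earlier. Delayed and immediate animals gave 9 and 8 libraries of MAC on day 5 and 7 and 8 on day 14. For SC the numbers were 9 and 7, then 7 and 8, and the stump gave 9 and 7. Every mouse carried the eGFP transgene, which is driven by the human S100β promoter, so an SC is here a GFP-high cell that bound none of the antibodies against other cell types. A MAC is a cell high in F4/80, CD14, CD16/32 and CD11b. An age was not given in the sources used here.

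MHC class II molecules are pairs of an alpha and a beta chain that carry peptides from engulfed material to the cell surface and show them to CD4+ T cells. H2-Aa and H2-Ab1 encode the alpha and beta chains of I-A, and H2-Eb1 the beta chain of I-E. Cd74 is the invariant chain that fills the groove of new molecules until the cathepsins cut it down. H2-DMa and H2-DMb1 form the exchanger that replaces the last piece of Cd74 by peptide, and H2-Oa is part of its inhibitor. Ciita is the coactivator on which transcription of these genes depends, and Cd80 and Cd86 are the surface ligands that give a T cell its second signal through Cd28. Dendritic cells and B cells carry the class II chains and Cd74 constitutively, and macrophages mostly after interferon gamma.

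**Figure D1:**
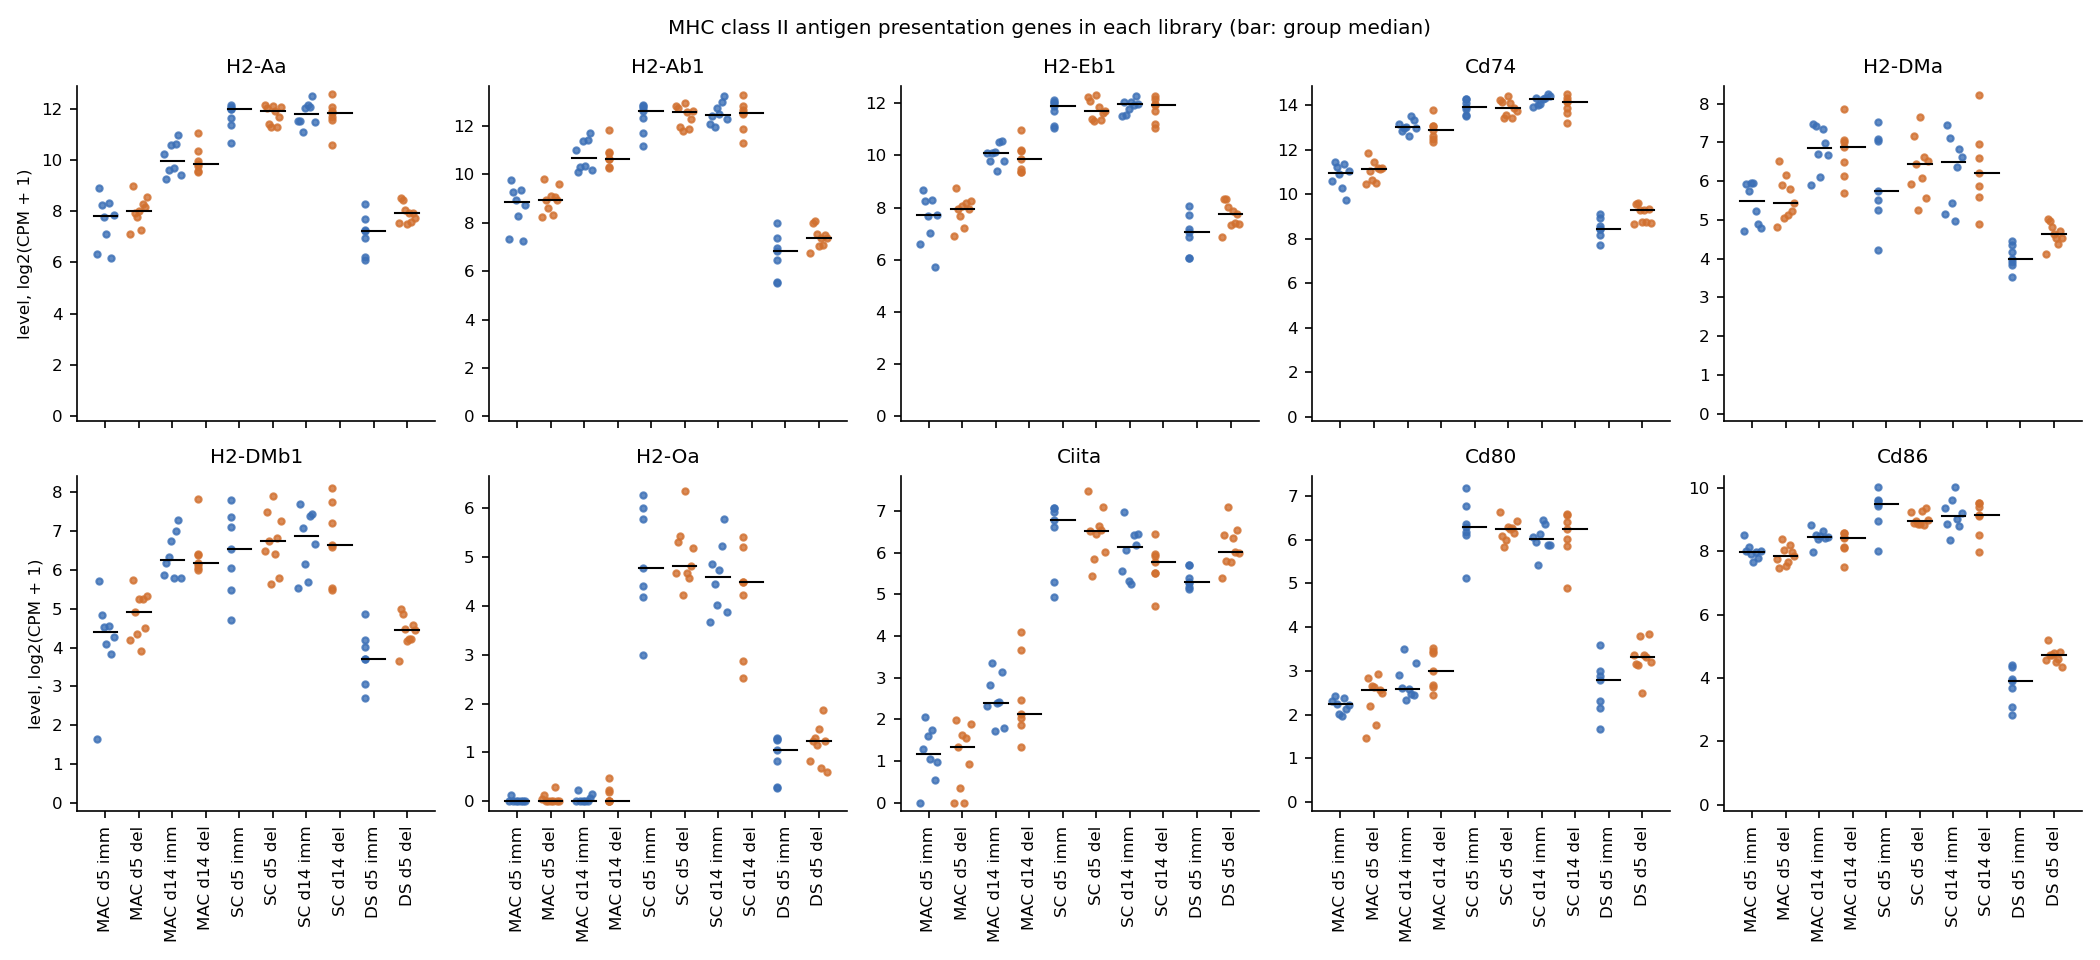
Level of each of the 10 genes in every library, as log2(CPM + 1), with blue points for immediate and orange points for delayed repair and a bar at the group median. The MAC libraries of day 14 sit above those of day 5 for H2-Aa, H2-Ab1, H2-Eb1, Cd74 and H2-DMb1, and H2-Oa lies near 0 in every MAC library.

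Of the 10 genes, 6 had a promoter in the RefSeq table of GRCm38.p6 (H2-Aa, H2-Eb1, H2-DMa, H2-DMb1, H2-Oa and Cd80), and H2-Ab1, Cd74, Ciita and Cd86 did not. The 4 promoters below are those of genes of the class II region of chromosome 17 that hold the letters TGATTGG, the core of the Y box that NF-Y binds in class II promoters. Each is the 250 bases before the start of transcription, 5′ to 3′, and capitals mark the letters searched for, which were chosen after the sequences had been seen. On the strand of the gene, TGATTGG ended 44 bases before the start in H2-Aa, 55 in H2-Eb1, 57 in H2-DMb1 and 39 in H2-Oa.
H2-Aa, chr17:34287824-34288073, minus strand: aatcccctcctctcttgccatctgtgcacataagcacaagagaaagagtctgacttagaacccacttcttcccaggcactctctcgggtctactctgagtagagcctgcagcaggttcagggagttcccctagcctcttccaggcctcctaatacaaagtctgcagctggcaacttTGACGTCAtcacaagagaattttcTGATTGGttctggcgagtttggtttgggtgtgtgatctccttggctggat
H2-Eb1, chr17:34305617-34305866, plus strand: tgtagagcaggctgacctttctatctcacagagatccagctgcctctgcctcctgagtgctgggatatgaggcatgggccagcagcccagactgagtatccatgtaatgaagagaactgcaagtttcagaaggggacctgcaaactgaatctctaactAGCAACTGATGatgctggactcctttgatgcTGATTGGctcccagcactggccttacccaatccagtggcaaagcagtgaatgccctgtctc
H2-DMb1, chr17:34152941-34153190, plus strand: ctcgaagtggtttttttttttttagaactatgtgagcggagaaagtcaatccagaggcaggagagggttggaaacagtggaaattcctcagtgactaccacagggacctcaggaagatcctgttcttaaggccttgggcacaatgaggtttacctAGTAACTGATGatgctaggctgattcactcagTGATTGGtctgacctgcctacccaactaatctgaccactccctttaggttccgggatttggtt
H2-Oa, chr17:34092129-34092378, plus strand: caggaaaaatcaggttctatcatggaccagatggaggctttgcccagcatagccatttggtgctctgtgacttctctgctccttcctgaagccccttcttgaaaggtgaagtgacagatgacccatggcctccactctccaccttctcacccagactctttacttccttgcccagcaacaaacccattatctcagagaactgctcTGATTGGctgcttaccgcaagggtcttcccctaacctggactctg
The letters TGATTGG occurred on either strand in 7.23% of the 32851 promoters of the table, over the same 250 bases. H2-Eb1 and H2-DMb1 also held a run resembling the X box, the site of the RFX complex that lies before the Y box, ending 82 and 85 bases before the start, which 0.259% of the promoters held. TGACGTCA, the cAMP response element, ended 67 bases before the start of H2-Aa and stood in 1.55% of the promoters. Neither of the H2-DMa starts in the table nor the Cd80 promoter had any of these runs of letters. The H2-DMa starts were 34122832 and 34125518, inside the gene as annotated from 34119541 to 34139101. Other starts of H2-DMa were not searched.

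Of the members, 7 lie on chromosome 17 or 18 and the rest on chromosome 16. In the GENCODE annotation of GRCm38, the class II genes of chromosome 17 ran from H2-Oa (34092340 to 34095234) through H2-DMa (34119541 to 34139101), H2-DMb1 (34153072 to 34160230), H2-Ab1 (34257689 to 34269419) and H2-Aa (34282744 to 34287823) to H2-Eb1 (34305867 to 34316674). Cd74 lies on chromosome 18 (60803848 to 60812652). Ciita (10480059 to 10528418), Cd86 (36603869 to 36666081) and Cd80 (38455561 to 38496335) lie on chromosome 16. H2-DMb1 has a near copy, H2-DMb2, beside it, and how reads common to both were shared out was not given in the sources used here.

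Depth ran from 14928748 to 28499405 counts per library for MAC, 11614940 to 30796825 for SC and 3898778 to 9212710 for DS. Sorted libraries were made from amplified cDNA of 1000 cells and stump libraries from rRNA-depleted RNA, so levels of the stump and of sorted cells were not compared by a test. The macrophage list summed to between 20000 and 42060 CPM (counts scaled by the library total) in the MAC libraries. In the SC libraries, however, the dendritic cell list summed to 9857 to 24670 CPM at day 5 and 4350 to 17790 CPM at day 14, above the Schwann cell list, which reached 142 to 1324 CPM and 506 to 3463 CPM. Ccr7, the chemokine receptor of migrating dendritic cells, had a median of 7184 CPM in SC at day 5 beside 3.65 CPM for S100b and 20.3 CPM for Sox10. The SC values are therefore those of a GFP-high sort in which dendritic cell genes outweigh Schwann cell genes, and SC is kept below as the name of the sort. The part of dendritic cells in the levels of these genes was not tested beyond the relations given further on.

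Class II message was abundant in both sorts. H2-Aa, H2-Ab1, H2-Eb1 and Cd74 together took 0.114% to 0.557% of all counts in MAC at day 5, 0.833% to 2.19% at day 14, 1.79% to 3.92% in SC at day 5, 1.83% to 4.35% at day 14 and 0.0396% to 0.170% in DS. Per kilobase of exon, Cd74 had the highest level of the 10 genes in each sort and day, with a median of 9091 CPM per kb in SC at day 5 and 4813 CPM per kb in MAC at day 14. In SC at day 5 the order of the medians after Cd74 was H2-Ab1 (2400 CPM per kb), H2-Eb1 (1826), H2-Aa (1031), Cd86 (151), H2-DMb1 (58.4), H2-DMa (22.2), Cd80 (20.5), H2-Oa (19.1) and Ciita (9.93). The ranges of neighbours in that order overlapped except for the steps from Cd74 to H2-Ab1 and from H2-Aa to Cd86. In MAC at day 14 the same order held down to H2-DMa (33.7 CPM per kb), after which came Cd80 (1.45), Ciita (0.446) and H2-Oa at a median of 0.

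H2-Oa was at or near the floor in MAC. MAC libraries held 0 to 5 counts of it at day 5 and 0 to 7 at day 14, and it was at 0 in 13 of 17 and 9 of 15 libraries. A count of 0 in a MAC library allows up to 0.105 to 0.201 CPM, depending on its depth, for counting error alone. SC libraries held 212 to 1936 counts at day 5 and 55 to 959 at day 14, so no SC library came near the MAC range. Its partner H2-Ob, the beta chain of the same inhibitor, had medians of 0.129 and 0.506 CPM in MAC against 46.0 and 45.2 CPM in SC. Ciita was also low in MAC, with 0 to 66 counts at day 5.

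Delayed and immediate repair were first compared in the stump, to ask whether 8 weeks of denervation changed these genes at day 5. Cd86, Ciita, H2-DMa and Cd74 were higher after delayed repair, and each of the 5 other genes tested also had a positive estimate without passing the test. Cd86 ran from 19.5 through a median of 25.5 to 35.9 CPM in the 9 delayed libraries and from 6.14 through 13.9 to 20.4 CPM in the 7 immediate ones. Ciita ran from 41.3 through 63.8 to 136 CPM against 34.1, 38.1 and 51.5 CPM. In both genes 8 of 9 delayed libraries lay above every immediate library. The log2 fold change was 0.93 (SE 0.21, adjusted p = 0.00401 in edgeR's quasi-likelihood test) for Cd86 and 0.87 (SE 0.20, adjusted p = 0.00385) for Ciita.

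H2-DMa ran from 16.5 through 24.1 to 31.8 CPM in delayed and from 10.5 through 14.9 to 20.9 CPM in immediate stumps, and 7 of 9 delayed libraries exceeded all immediate ones. Cd74 ran from 407 through 621 to 771 CPM against 210, 352 and 558 CPM, with 5 of 9 delayed libraries above the immediate range. All 9 delayed libraries of both genes lay above the immediate median. The log2 fold change was 0.65 (SE 0.16, adjusted p = 0.00606 by edgeR) for H2-DMa and 0.62 (SE 0.20, adjusted p = 0.0306) for Cd74. The Cd74 call was lost in 10 of the 16 fits that left out 1 library.

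The chains of the class II molecules themselves varied more among stumps. H2-Aa ran from 182 through 240 to 360 CPM in delayed and from 67.7 through 149 to 306 CPM in immediate libraries, and all 9 delayed libraries exceeded the immediate median, but the groups overlapped widely. Its log2 fold change was 0.70 (SE 0.27, adjusted p = 0.0643 by edgeR). H2-Ab1 (0.59, SE 0.31), H2-Eb1 (0.64, SE 0.29), H2-DMb1 (0.59, SE 0.27) and Cd80 (0.68, SE 0.27) likewise missed the threshold, with adjusted p-values of 0.170, 0.109, 0.117 and 0.0765 by edgeR. H2-Oa held 1 to 15 counts in the stump and was below the filter on low counts. In all, 4 of 9 tested members were called higher and 0 lower, beside 12.8% of the 12229 genes called higher (26.3% in either direction), and the median log2 fold change was 0.65 for the members against 0.02 for all genes. By DESeq2 5 members were called, beside 30.1% of genes. Immediate library 8 had the highest H2-Aa, H2-Ab1, H2-Eb1, H2-DMb1 and Cd74 of its group, and without it 8 of 9 members were called. Leaving out an immediate library that is high in these genes raises their difference, and the share of all genes called in that fit is not given. The 8 of 9 are therefore not read as a result.

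Other genes of the class II pathway were higher in delayed stumps in 15 of 29 tested cases and lower in none, beside 12.8% of all genes called higher. Icosl, the ligand of Icos, rose by a log2 fold change of 0.77, Cd274, which encodes PD-L1, by 1.06 and Ifngr2, a chain of the interferon gamma receptor, by 0.53. In these 3 genes the delayed and immediate libraries did not overlap, as in 0.834% of all genes in that direction. Jak2 (0.61) and Irf1 (0.73), which act below the interferon gamma receptor, rose too, as did Rfx5 (0.49) and Creb1 (0.28), which bind class II promoters, and Sppl2a (0.52), the protease that clears the last stub of Cd74. Of 13 class I presentation genes, 6 were higher and 0 lower, among them Nlrc5 (0.99), the class I counterpart of Ciita, and the peptide transporter Tap1 (0.89).

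In a piece of tissue, a change in the number of cells of a type and in RNA per cell cannot be told apart. The macrophage list summed to 4196 to 7068 CPM in delayed and 1900 to 6649 CPM in immediate stumps, and 2 of its 12 genes were called higher. The dendritic cell list summed to 193 to 306 CPM against 186 to 265 CPM, with 3 of 8 tested genes higher, and the T cell list to 7.18 to 36.3 CPM against 1.99 to 19.7 CPM. The Schwann cell list fell from 1433 to 3410 CPM in immediate stumps to 128 to 901 CPM in delayed ones, with 9 of 10 genes lower. The endothelial list rose without overlap, from 520 to 714 CPM to 773 to 1191 CPM. The part of these cells in the class II result was not tested.

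**Figure D2:**
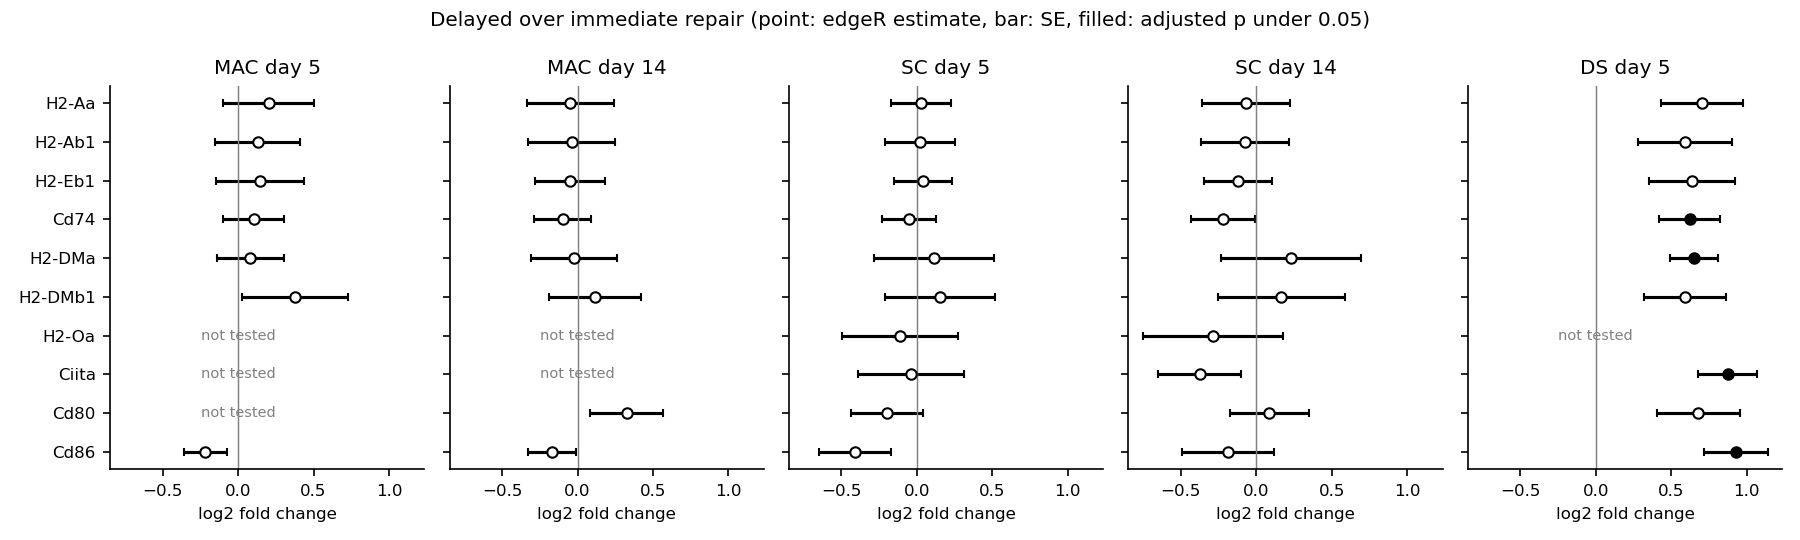
Log2 fold change of delayed over immediate repair (horizontal axis) for each gene in each sort and day, with the standard error as a bar and a filled point where the adjusted p was under 0.05. Filled points occur in the stump only, for Cd74, H2-DMa, Ciita and Cd86, and in MAC and SC the estimates lie on both sides of 0.

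In the sorted cells the same comparison gave no call for any member. Among MAC at day 5 H2-Aa ran from 137 through 256 to 502 CPM after delayed and from 71.6 through 223 to 472 CPM after immediate repair. Among SC at day 5 it ran from 2508 through 3799 to 4478 CPM and from 1625 through 4034 to 4527 CPM. The groups overlapped almost fully. By edgeR 0 of 7 tested members were called in MAC at day 5 (0.0357% of 8409 genes were), 0 of 8 in MAC at day 14 (0% of 8589), 0 of 10 in SC at day 5 (0% of 9604) and 0 of 10 in SC at day 14 (0% of 10226). No member had an unadjusted p under 0.05 in any of the 4, beside 5.17%, 2.21%, 5.26% and 3.65% of genes, and DESeq2 called 0 members, beside 0.202%, 0%, 0.146% and 0.0293%.

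The estimates bound what could have been missed. In MAC they ran from -0.22 (Cd86) to 0.38 (H2-DMb1) at day 5 and from -0.17 (Cd86) to 0.33 (Cd80) at day 14, with standard errors between 0.14 and 0.35. In SC they ran from -0.41 (Cd86) to 0.15 (H2-DMb1) at day 5 and from -0.38 (Ciita) to 0.23 (H2-DMa) at day 14, with standard errors between 0.18 and 0.46. In simulated counts of the MAC day 5 libraries the test recovered 12% of genes changed by a log2 fold change of 0.5 and 92% of those changed by 1, and for SC at day 14 2% and 36%. A difference of log2 0.5 would thus mostly have been missed in both, and in SC at day 14 one of log2 1 as well. The simulation changed 200 genes at once, which eases the adjusted threshold, whereas 3 genes were called in the MAC day 5 data. The 92% is therefore not the recovery of a member changed alone. Standard errors there were 0.30 for H2-Aa, 0.28 for H2-Ab1, 0.29 for H2-Eb1 and 0.35 for H2-DMb1. A change of log2 1 in these genes could have been missed too. H2-Oa and Ciita in both MAC comparisons and Cd80 in MAC at day 5 were below the filter.

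Between day 5 and day 14 class II genes rose in MAC. H2-Aa ran from 71.6 through 241 to 502 CPM in the 17 libraries of day 5 and from 610 through 921 to 2113 CPM in the 15 of day 14. H2-Eb1 went from 52.1, 243 and 431 CPM to 652, 1077 and 1991 CPM, and H2-Ab1 from 152, 490 and 902 CPM to 1078, 1589 and 3670 CPM. In these 3 genes, in Cd74 and in H2-DMb1 every library of day 14 lay above every library of day 5, which held for 0.223% of the 8949 genes tested.

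The rise was 4.24-fold for H2-Aa (log2 2.09, SE 0.23, adjusted p = 3.55e-08 by edgeR), 4.32-fold for H2-Eb1 (log2 2.11, SE 0.21, adjusted p = 4.53e-09) and 3.67-fold for H2-Ab1 (log2 1.88, SE 0.22, adjusted p = 1.09e-07). Cd74 rose 3.76-fold (log2 1.91, SE 0.15), from a median of 2131 CPM to 8081 CPM, and H2-DMb1 3.40-fold (log2 1.77, SE 0.25), from 22.1 to 71.0 CPM. H2-DMa rose by less, 2.36-fold (log2 1.24, SE 0.19), from 42.5 to 116 CPM, and 10 of 15 day 14 libraries lay above the range of day 5.

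The costimulators moved least. Cd80 went from 1.78, 3.98 and 6.67 CPM at day 5 to 4.08, 5.38 and 10.5 CPM at day 14 (log2 0.60, SE 0.16, adjusted p = 0.00654 by edgeR). Cd86 went from 175, 249 and 366 CPM to 181, 347 and 450 CPM (log2 0.31, SE 0.11, adjusted p = 0.0336), with 14 of 15 libraries above the day 5 median. The Cd86 call was lost in 5 of the 32 fits that left out a library. Ciita was below the filter here, but its level moved from 0 to 3.13 CPM (median 1.44) to 1.53 to 16.1 CPM (median 4.25), and all 15 libraries of day 14 exceeded the day 5 median. All 8 tested members were called higher, beside 12.5% of all genes in that direction (25.4% in either), with a median log2 fold change of 1.82 against 0.01.

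Of 31 other pathway genes tested in MAC, 5 were higher and 5 lower, beside 12.5% of all genes called higher and 25.4% in either direction. Cd4 (3.04), the T cell coreceptor that some macrophages also carry, Cd28 (2.08), H2-DMb2 (2.43) and March1 (0.85), the ligase that removes class II from the surface, were higher. Lgmn (-0.46) and Ctsl (-0.57), proteases that cut Cd74 and antigen, Socs1 (-0.81) and Csf2 (-2.20) were lower. Among the 13 class I genes 0 were higher and 1, B2m (-0.16), was lower. The dendritic cell list summed to at most 150 CPM in MAC at day 5 and 97.5 CPM at day 14, and 0 of its 3 tested genes were called, with Flt3 at 0 in 9 of 17 and 9 of 15 libraries. The B cell list stayed between 0.891 and 15.1 CPM. The macrophage list summed to 20000 to 32480 CPM at day 5 and 29680 to 42060 CPM at day 14. The endothelial list went the other way, from 21.4 to 69.3 CPM at day 5 to 15.4 to 34.0 CPM at day 14. The part of these markers in the rise was not tested.

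SC did not show that rise. H2-Aa ran from 1625 through 3917 to 4527 CPM at day 5 and from 1511 through 3619 to 6037 CPM at day 14, and Cd74 from 10890 through 15260 to 21750 CPM and from 9517 through 18780 to 23580 CPM. The days overlapped for every member. Ciita alone was called, and it fell from 29.6, 94.7 and 177 CPM to 25.6, 60.0 and 126 CPM, with 14 of 15 libraries of day 14 below the day 5 median. Its log2 fold change was -0.86 (SE 0.24, adjusted p = 0.0105 by edgeR). H2-Oa (-0.76, SE 0.31, adjusted p = 0.0845 by edgeR) and Cd80 (-0.42, SE 0.19, adjusted p = 0.119) missed the threshold.

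Thus 1 of 10 members was lower and 0 higher in SC, beside 11.9% of the 10923 genes called lower (19.6% in either direction). Of 35 pathway genes 3 were higher and 9 lower, with Cd274 (-1.26), Icosl (-0.80), Jak2 (-0.74), Irf1 (-0.71), Ctsl (-1.52) and Ctsb (-0.81) among the lower ones. Of 13 class I genes 1 was higher and 3 were lower. In the same libraries 5 of 11 dendritic cell genes were lower and 1 higher, and 5 of 10 Schwann cell genes were higher and 0 lower. The part of this shift of markers in the Ciita result was not tested.

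The difference between the day effects was itself tested, by an interaction of day and sort that was added after the data had been seen. The change from day 5 to day 14 was larger in MAC than in SC by a log2 value of 2.26 (SE 0.26) for H2-Eb1, 2.23 (SE 0.30) for H2-Aa, 1.97 (SE 0.30) for H2-Ab1 and 1.94 (SE 0.20) for Cd74, with adjusted p-values of 4.65e-09, 2.27e-07, 2.26e-06 and 5.43e-10 by edgeR. H2-DMb1 (1.797, SE 0.39), H2-DMa (1.31, SE 0.37) and Cd80 (1.06, SE 0.25) also differed. Ciita was called as well, but it passed the filter here only through SC, where it is high, and its MAC counts were below the filter of the MAC comparison, so its value is not read. Cd86 (0.59, SE 0.24, adjusted p = 0.0793 by edgeR) was not called, nor was H2-Oa, which also passed the filter only through SC. Of the 8 members that passed the filter in MAC alone, 7 were called in that direction, beside 10.8% of the 11161 genes (15.9% in either direction).

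**Figure D3:**
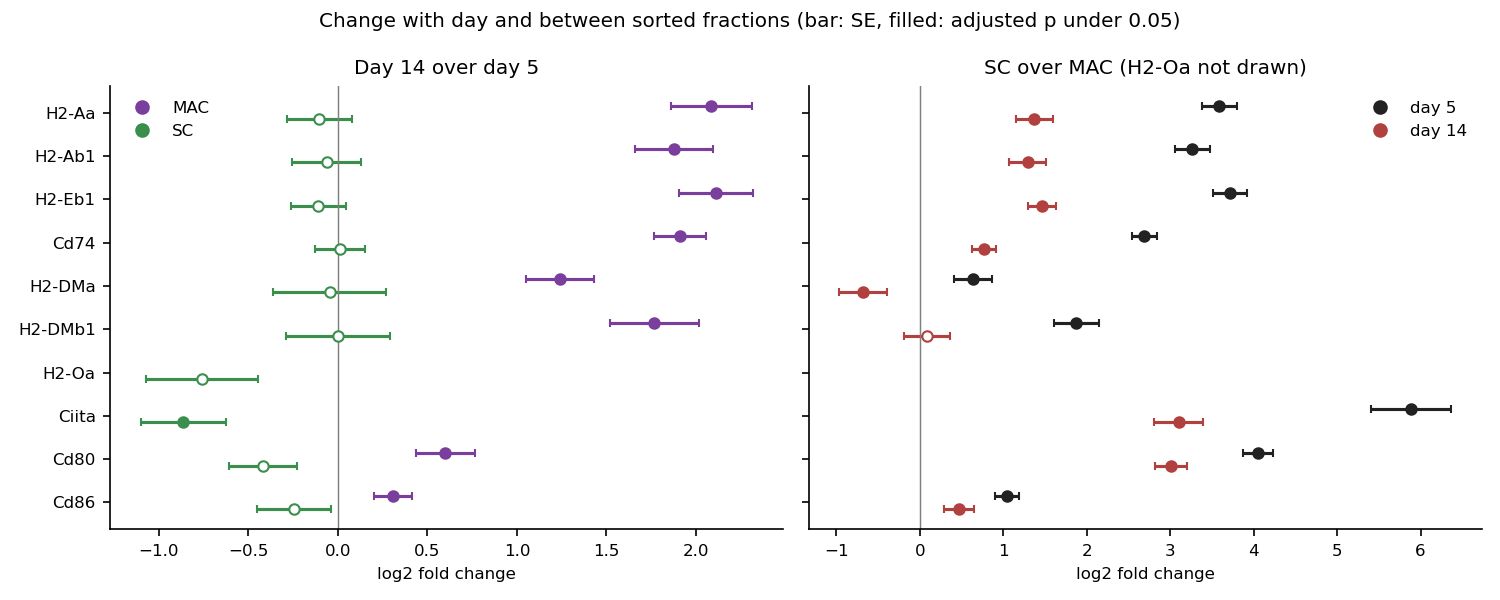
Log2 fold changes of day 14 over day 5 in MAC and SC (left) and of SC over MAC at each day (right), with the standard error as a bar and filled points where the adjusted p was under 0.05. The MAC values of H2-Aa, H2-Ab1, H2-Eb1, Cd74 and H2-DMb1 lie between 1.77 and 2.11, and the SC over MAC difference of these genes is smaller at day 14 than at day 5. In the right panel Ciita, and Cd80 at day 5, passed the filter on low counts only through SC.

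Set against MAC directly at day 5, SC had higher levels of all 7 members that passed the filter in MAC alone. H2-Oa, Ciita and Cd80 entered this comparison only through SC, where they are high, so their calls had to follow and their levels are given without a test. H2-Aa had a median of 3917 CPM in SC and 241 CPM in MAC, a log2 difference of 3.59 (SE 0.21, adjusted p = 7.47e-16 by edgeR). H2-Eb1 differed by 3.72 (SE 0.21), H2-Ab1 by 3.26 (SE 0.21) and Cd74 by 2.69 (SE 0.15). In these 4 genes no SC library overlapped the MAC libraries, as in 10.7% of all genes in that direction. Ciita had a median of 1.44 CPM in MAC, from at most 66 counts a library, and 94.7 CPM in SC, and Cd80 had 3.98 CPM and 75.8 CPM.

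The remaining genes differed by less at day 5. H2-DMb1 (1.88, SE 0.27), Cd86 (1.05, SE 0.15) and H2-DMa (0.63, SE 0.23, adjusted p = 0.0156 by edgeR) overlapped between sorts. Within animals, SC exceeded MAC in 16 of 16 for each of the 7 members except H2-DMa, where it did so in 15 of 16. The background of the comparison is high, with 35.6% of 10087 genes called higher in SC (65.5% in either direction).

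By day 14 the gap had narrowed. H2-Aa had 3619 CPM in SC and 921 CPM in MAC at the median, a log2 difference of 1.37 (SE 0.22), and H2-Eb1 (1.47, SE 0.17), H2-Ab1 (1.29, SE 0.22) and Cd74 (0.77, SE 0.14) were also higher in SC, in 15 of 15 animals. Cd80 (3.01, SE 0.19) and H2-Eb1 did not overlap between the sorts, as in 11.9% of all genes in that direction. Ciita, with medians of 4.25 CPM in MAC and 60.0 CPM in SC, and H2-Oa again passed the filter only through SC. H2-DMa was now lower in SC, by -0.68 (SE 0.29, adjusted p = 0.0401 by edgeR), and in 13 of 15 animals. But this call was lost in 14 of the 30 fits that left out a library, and with library size scaling only. H2-DMb1 did not differ beyond its spread (0.08, SE 0.28, adjusted p = 0.815). Cd86 differed by 0.46 (SE 0.18, adjusted p = 0.0251), and with the animal as a replicate block by 0.38 (adjusted p = 0.0779 by edgeR), with SC above MAC in 12 of 15 animals. Of the 8 members that passed the filter in MAC alone, 6 were higher and 1 lower, beside 36.9% and 27.5% of 10596 genes (64.4% in either direction).

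The proteases that prepare Cd74 and antigen ran the other way. In SC, Ctss was lower than in MAC by a log2 value of -2.36 at day 5 and -2.92 at day 14, and Ctsb, Ctsd, Ctsl and Lgmn were lower at both days as well. Ifi30, the lysosomal thiol reductase, was higher (1.46 and 0.89). Icosl (4.14 at day 5), the ligand of Icos, and Cd40 (3.15), the receptor through which T cells activate antigen-presenting cells, were higher in SC without overlap at both days. Among pathway genes that passed the filter in each sort alone, 11 of 24 were higher and 9 lower in SC at day 5, and 13 and 12 of 29 at day 14. By the same rule 12 of 12 macrophage genes were lower in SC at day 5 and 11 of 11 at day 14. Only 2 dendritic cell genes and 1 Schwann cell gene passed in both sorts, since nearly all genes of these lists reached the filter in SC alone, so no count is read from them.

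Whether delayed repair changed the course between days was tested by the interaction of repair and day. By edgeR 0 of 8 members were called in MAC and 0 of 10 in SC, beside 0.0223% of 8949 and 0% of 10923 genes. No member had an unadjusted p under 0.05, beside 3.61% and 4.8% of genes, and DESeq2 called 0, beside 0.101% and 0.0824%. The estimates ran from -0.26 (H2-DMb1) to 0.13 (Cd80) in MAC and from -0.32 (Ciita) to 0.30 (Cd80) in SC, with standard errors of 0.22 to 0.63. In simulated counts this test recovered in SC 0% of genes changed by a log2 value of 0.5, 4% of those changed by 1 and 58% of those changed by 2, so most interactions of up to log2 1 would have been missed there.

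A further comparison, of females and males, was added after the levels had been seen. The H2-DM genes were higher in females at day 5 in both sorts. In MAC, H2-DMa ran from 42.5 through 60.2 to 90.2 CPM in 9 females and from 25.3 through 30.5 to 36.6 CPM in 8 males. In SC it ran from 86.4 through 133 to 201 CPM in 8 females and from 17.7 through 45.6 to 66.8 CPM in 8 males. The sexes did not overlap in either sort, as in 2.97% and 0.958% of genes in that direction. The log2 fold change of females over males was 0.84 (SE 0.13, adjusted p = 0.000192 by edgeR) in MAC and 1.32 (SE 0.25, adjusted p = 0.00537) in SC.

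H2-DMb1 had a median of 36.6 CPM in female and 17.9 CPM in male MAC (log2 0.92, SE 0.29, adjusted p = 0.0242 by edgeR), a call that was lost with the H2-Ea-ps to H2-Eb1 ratio in the fit (adjusted p = 0.0779 by edgeR). In SC it ran from 105 through 157 to 238 CPM in females and from 25.1 through 60.0 to 91.5 CPM in males, without overlap (log2 1.14, SE 0.25, adjusted p = 0.0143). In SC, H2-Oa was higher in females (log2 1.10, SE 0.29, adjusted p = 0.0324) and Cd86 lower (-0.67, SE 0.18, adjusted p = 0.0365), while H2-Aa, H2-Ab1, H2-Eb1 and Cd74 had estimates between -0.22 and 0.04 and were not called. These 2 calls were lost in 6 and 8 of the 16 fits that left out a library. The Cd86 call was also lost with the H2-Ea-ps to H2-Eb1 ratio in the fit, with library size scaling only and without a filter. In MAC 2 of 7 members were higher, beside 13.8% of all genes (25.1% in either direction), and without single libraries the count ran from 1 (without immediate library 8) to 5 (without immediate library 4). In SC 3 of 10 were higher and 1 lower, beside 1.66% and 5.36% (7.02% in either direction).

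At day 14 the sexes overlapped for H2-DMa and H2-DMb1 in both sorts. By edgeR 0 members were called in MAC at day 14, SC at day 14 or DS, where 0.0466%, 0.0391% and 0.0654% of genes were, and DESeq2 called 0 in each, beside 0.116%, 0.0587% and 0.736%. At an unadjusted p under 0.05 there was 1 member in MAC at day 14 (Cd74), 0 in SC at day 14 and 1 in DS (H2-DMb1), beside 3.07%, 2.52% and 14.6% of genes. Beside the day 5 result, 6 of 12 macrophage genes were higher and 2 lower in female MAC, and 6 of 11 dendritic cell genes were lower in female SC. The labels give no date of sorting or sequencing, so a batch that followed sex at day 5 cannot be told apart from sex. Whether the effect of sex differed between days was not tested.

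**Figure D4:**
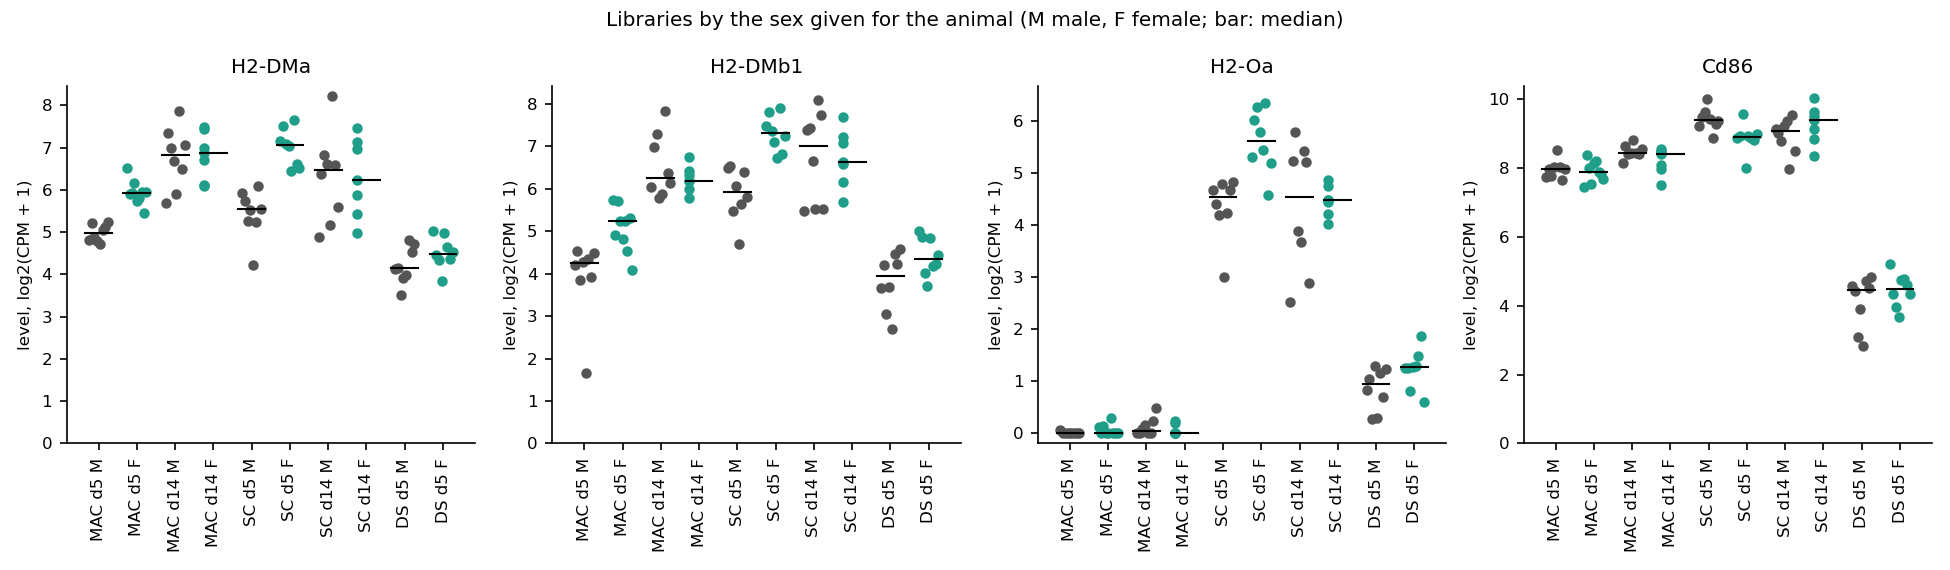
Level of H2-DMa, H2-DMb1, H2-Oa and Cd86 in each library as log2(CPM + 1), by sort, day and the sex given for the animal (M male, F female), with a bar at the median. At day 5 the female and male libraries are separate for H2-DMa in MAC and SC and for H2-DMb1 in SC, and they overlap at day 14.

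The H2-DM genes also varied together between sorts of the same animal. Over 31 animals with both libraries, with group means of repair and day removed, the level of H2-DMa in MAC and SC correlated with a Pearson r of 0.80 (adjusted permutation p = 0.00138) and a Spearman rho of 0.82 (adjusted permutation p = 0.00160). For H2-DMb1 r was 0.69 (adjusted permutation p = 0.00440) and rho 0.65 (adjusted permutation p = 0.00667). Without the 2 animals farthest from the median r was 0.77 and 0.57. No other member was called, with r of 0.49 for H2-Ab1 and 0.41 for H2-Aa, though with library size scaling only H2-Ab1 was (r 0.60, adjusted permutation p = 0.0205), and a positive r was called for 5.85% of 8797 genes. Within day 5 r was 0.79 for H2-DMa and 0.83 for H2-DMb1 over 16 animals (adjusted permutation p = 0.0399 for each), and within day 14 0.82 and 0.54 over 15 animals (adjusted permutation p = 0.0944 and 0.393). With the means of sex removed as well, r was 0.74 and 0.60 (adjusted permutation p = 0.0886 and 0.152), so neither gene was called once the sexes were centred.

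Another gene of the class II region divided the animals. H2-Ea-ps, annotated as a polymorphic pseudogene for the I-E alpha chain (chromosome 17, 34341959 to 34344645), lacks a working promoter in some inbred strains. Its count was at most 0.00126 of that of H2-Eb1 in both sorts of 6 animals, which were delayed 6 and immediate 8 at day 5 and delayed 1, 3 and 6 and immediate 3 at day 14. In day 14 immediate animal 6 the ratio was 0.0213 in MAC and 0.0646 in SC. A group of 6 animals (day 5 immediate 1, day 14 delayed 2 and 8, and day 14 immediate 2, 7 and 8) had ratios of 1.08 to 1.30 in MAC and 0.853 to 1.06 in SC. The others lay between 0.431 and 0.626 in MAC and between 0.377 and 0.475 in SC. The ratio of H2-Aa to H2-Eb1 was 0.657 to 0.819 in MAC of the 6 animals with the most H2-Ea-ps, 0.973 to 1.37 in the middle animals and 1.16 to 1.41 in the 6 with the least, so the high group stood apart and the other 2 kinds overlapped. The strain background of single animals was not given in the sources used here. Of the 9 delayed animals of day 5 none was in the high group, and each other group of repair and day held animals of all 3 kinds. These ratios are a description, with no test.

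**Figure D5:**
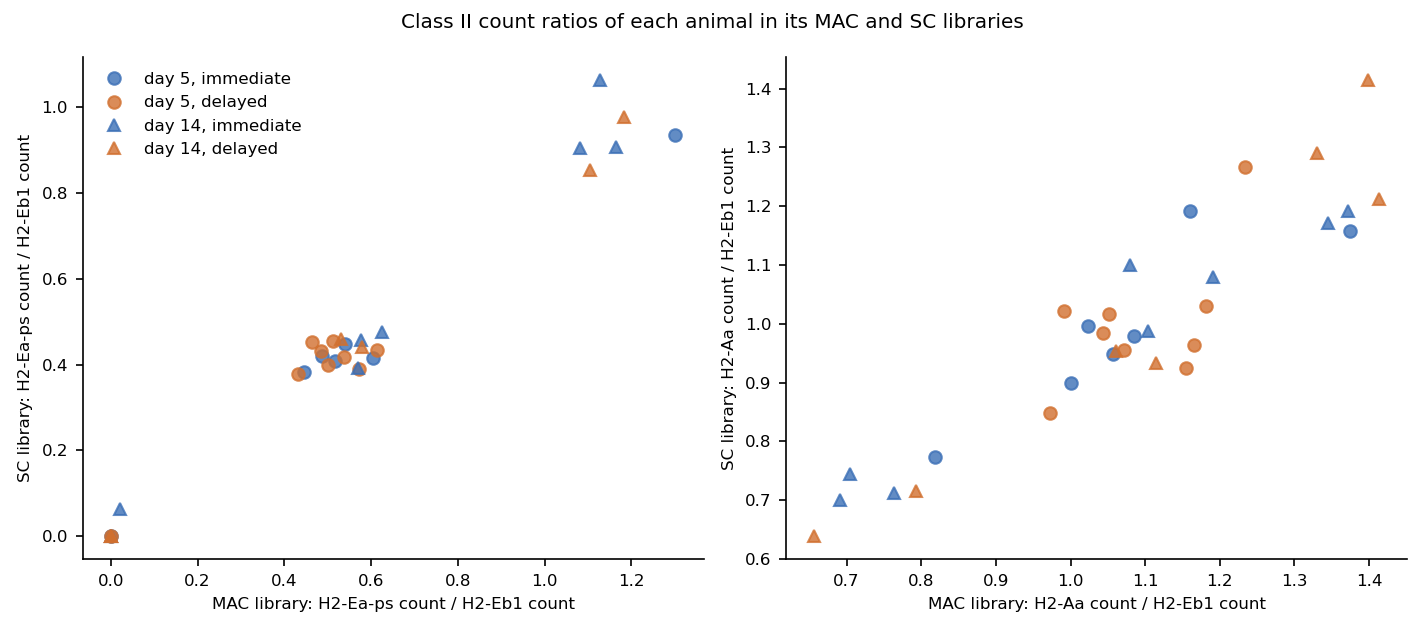
Ratio of H2-Ea-ps to H2-Eb1 counts (left) and of H2-Aa to H2-Eb1 counts (right) for each animal, with its MAC library on the horizontal and its SC library on the vertical axis. The H2-Ea-ps ratios fall near 0, near 0.5 and near 1 in MAC, and each animal keeps its place in both sorts.

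Levels were last set against marker list scores, over libraries of a sort with group means removed. A score is the mean of log2(CPM + 1), TMM-scaled, over the genes of a list, and not the summed CPM given above. In SC, the dendritic cell score rose with Cd86 (r 0.67, rho 0.59), H2-Aa (r 0.62, rho 0.60), Cd80 (r 0.59, rho 0.61) and H2-Eb1 (r 0.58, rho 0.56), with adjusted permutation p-values of r of 0.0146, 0.0323, 0.0390 and 0.0423 and of rho of 0.0529, 0.0367, 0.0400 and 0.0659. These 4 of 10 members compare with 3.67% of all genes, none of the 4 was called with library size scaling only, and r without the 2 farthest libraries was 0.55 to 0.65. No member was called with the Schwann cell score in SC, beside 4.51% of genes with a positive and 4.77% with a negative r. Cd86 fell with the macrophage score, beside 2.07% of genes (r -0.52, adjusted permutation p = 0.0263, rho -0.52, adjusted permutation p = 0.0734). H2-DMa (r -0.05) and H2-DMb1 (r 0.10) had no relation to the dendritic cell score that passed the test.

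In DS, the macrophage score rose with Cd74 (r 0.86, rho 0.84, adjusted permutation p = 0.0117 and 0.0223), H2-Eb1 (r 0.80) and H2-DMa (r 0.75), beside 4.42% of all genes, and r without the 2 farthest libraries was 0.78, 0.72 and 0.69. With rho H2-Eb1 (adjusted permutation p = 0.0694) and H2-DMa (adjusted permutation p = 0.0941) lost the call, as they did with library size scaling only. The dendritic cell score rose with H2-DMb1 (r 0.82), H2-Ab1 (r 0.81) and H2-Eb1 (r 0.80), beside 0.368%, but none of the 3 passed with rho. In MAC, the macrophage score rose with H2-DMa (r 0.65), H2-DMb1 (r 0.62) and H2-Ab1 (r 0.46), beside 12.5% of all genes. The B cell score rose there with H2-DMa (r 0.81) and H2-DMb1 (r 0.50), beside 17.2%, the dendritic cell score with Cd80 (r 0.47), beside 1.68%, and the Schwann cell score with 5 of 8 members, beside 10.5%. With rho Cd80 lost the call (adjusted permutation p = 0.0902) and the Schwann cell score kept 3 members. Sex was not centred in any relation to a marker score, although H2-DMa, H2-DMb1 and 6 of 12 macrophage genes were higher in female MAC at day 5, and its part in these relations was not tested.

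The genes whose levels followed the mean of H2-Aa, H2-Ab1, H2-Eb1 and Cd74 most closely, again within groups, differed between sorts. In MAC these were Dgat1 (r 0.72 over 32 libraries), Acss1, Pla2g15, Cd4 and Cerk (0.66). In SC they were Lrrc33 (r 0.79 over 31 libraries), Tmem51, Il2rg, Meaf6 and Syngr2 (0.75), and in DS Plbd1 (r 0.95 over 16 libraries), Rbfa, Coro1a, Arf5 and Limd2 (0.92). They are the 5 highest of 8941, 10913 and 12220 genes, and the points share depth and library preparation.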

How the data were processed

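Per the labels and the methods of the study, reads were trimmed with cutadapt 1.8 and aligned to mm10 with TopHat2 2.1.1, and Cufflinks 2.2.1 (Cuffnorm) was named for normalisation. The authors deposited un-normalised estimated counts per gene for 23361 genes, 1 table each for MAC, SC and DS. The program that wrote them was not given in the sources used here. Counts were rounded to whole numbers. Levels are CPM of the library total, which ran from 3898778 to 30796825 counts, and a count of 0 allows up to 3 counts, for counting error only. Amplified cDNA without molecular identifiers makes counts less than independent molecules.

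Groups came from the labels, and no column was left without a sample (0). Genes that reached 5 CPM in 6 or more libraries were tested with edgeR 4.0.16 (quasi-likelihood, TMM scaling, Benjamini-Hochberg adjustment over all tested genes, threshold 0.05) in R 4.3.3, with limma 3.58.1 and DESeq2 1.42.0 as alternatives. Each comparison was fitted on its own libraries, without a block. Correlations used numpy 2.4.6 and permutation p-values, adjusted over all genes of the comparison. MAC and SC libraries of 1 animal are paired by the animal, and their deviations correlated by 0.032 to 0.346 in 31 pairs, 26 of them over 0.1. The tests were tried on simulated counts with 200 changed genes.

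All 10 members are described, and pathway, class I and marker genes were named by smallest p among those called, up to 8 a comparison, with others named after their values were seen. The members and gene lists were chosen with earlier results of these data known. Promoter letters were searched on both strands. Alternatives were other scalings, filters and tools, sex, the H2-Ea-ps ratio or the replicate number in the fit, and each library left out.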

Additional observations from a re-analysis of the deposited data

Results flagged for a closer look

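Of 96 group values checked for a library far from the rest, 8 were picked out, and chance alone picks out about 1 in 20. Among MAC of day 14 after delayed repair, animal 4 was far above the others for H2-Aa (2113 CPM), H2-Ab1 (3670 CPM), H2-Eb1 (1991 CPM), Cd74 (14100 CPM) and H2-DMb1 (225 CPM). The SC library of the same animal was the highest of its group for H2-DMa (298 CPM). H2-Oa was far above the rest in SC of day 5 delayed animal 8 (80.6 CPM), and Cd86 in the stump of day 5 delayed animal 5 (35.9 CPM). The causes were not tested.

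The change from day 5 to day 14 was called different between MAC and SC by the test of the difference itself for 8 members, 7 of which passed the filter on low counts in MAC alone. The MAC change exceeded the SC change by a log2 value of 1.94 for Cd74, 1.06 for Cd80, 2.81 for Ciita, 2.23 for H2-Aa, 1.97 for H2-Ab1, 1.31 for H2-DMa, 1.797 for H2-DMb1 and 2.26 for H2-Eb1. Ciita passed it in this fit only through SC, where it is high, so its value is not read as a difference. MAC and SC libraries came from the same animals, and this fit treated them as separate.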

How the results depend on the processing

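Of 46 member values called, 0 changed sign under any alternative setting and 7 lost the call under at least 1. The 46 include Ciita, H2-Oa and, at day 5, Cd80 between sorts, which passed the filter only through SC. Of 108 not called, 42 changed sign and 6 gained a call. With the replicate block, H2-DMb1 in SC against MAC at day 14 was -0.033 (adjusted p = 0.892 by edgeR), and by limma-voom the repair by day value of Ciita in SC was 0.27. Whether the replicate numbers pair the repair groups was not given in the sources used here, and correlation did not decide it. Libraries of the same number correlated over 0.1 in 7 of 8 pairs in MAC at day 5 and 1 of 7 in DS. MAC and SC of the same animal did so in 26 of 31. With the replicate block 3 members were higher in DS, beside 1016 genes (1565 in the main fit), and Cd74 fell to 0.49 (adjusted p = 0.135 by edgeR). Members higher in DS numbered 5 by DESeq2 and 6 by limma-voom, which called 2296 genes higher against 1565 in the main fit. Members lower over time in SC numbered 2 by limma-voom, with H2-Oa added (-1.06), and members lower in SC than MAC at day 14 numbered 0 with library size only, where H2-DMa was -0.31. Among sex differences at day 5, members higher in MAC numbered 1 with the H2-Ea-ps ratio in the fit, and members lower in SC 0 with that ratio, with library size only and without a filter.

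Leaving out 1 library gave 3 to 8 members higher in DS, 1 to 2 lower over time in SC, 0 to 1 lower in SC than MAC at day 14, 1 to 5 higher in female MAC and 0 to 1 lower in female SC at day 5. Single values that changed sign ran from -0.342 to 0.0064 for Cd80 after repair in SC at day 5 and from -0.048 to 0.271 for H2-DMb1 between sorts at day 14. Members correlated between MAC and SC numbered 0 within day 14 and 0 with sex centred. With Spearman's rho the members called numbered 5 (macrophage), 0 (dendritic cell) and 3 (Schwann cell) in MAC, 0 (macrophage) and 2 (dendritic cell) in SC, and 1 (macrophage) and 0 (dendritic cell) in DS. With library size only they numbered 6 and 2 for the first pair in MAC, 0 for dendritic cells in SC, and 1 and 1 in DS. The causes were not tested.

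Over all genes, DS calls higher ran from 1016 (replicate block) to 2296 (limma-voom) around 1565. Library size only moved the median of all genes by 0.11 for day in MAC, 0.20 for day in SC, 0.25 and 0.37 between sorts at day 5 and 14, and 0.15 and 0.21 between the sexes in MAC and SC at day 5, which gave 1914 genes higher and 580 lower over time in MAC (1117 and 1158 with TMM) and 1719 and 724 in SC (839 and 1303). Between sorts it gave 4489 higher and 2082 lower in SC at day 5 (3595 and 3013 with TMM) and 5781 and 1752 at day 14 (3915 and 2913). Between the sexes at day 5 it gave 2150 and 486 in MAC (1163 and 950) and 351 and 201 in SC (159 and 515).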

Other observations

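H2-DMb2, the near copy of H2-DMb1, did not follow it in every comparison. It was higher at day 14 than at day 5 in MAC by a log2 fold change of 2.43 (SE 0.53, adjusted p = 0.000869 by edgeR), as H2-DMb1 was. Between the sexes in SC at day 5 it had an estimate of 0.24 (SE 0.28, adjusted p = 0.668), where H2-DMb1 had 1.14. Whether the difference between the near copies exceeds their error was not tested.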
